A study of Mus musculus with 12 samples.

Results

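Ccr9 and Gpr15 encode 2 receptors that guide T cells to different stretches of the gut, and their RNA was followed in cultured mouse CD8 T cells, the cytotoxic arm of T cell immunity. They were picked by gene symbol, with earlier results of these data known, as the receptor for homing to the small intestine and the receptor for homing to the colon, and are 2 of the 46078 genes in the count tables. Both passed the filter on low counts, which kept 14009 genes. The cells came from the spleen of C57BL/6 mice, were grown in culture and were harvested on day 7, and the title of the series names CD8 tissue-resident memory (Trm) cells made in vitro. There were 4 groups of 3 libraries. Transforming growth factor beta and all-trans retinoic acid were added together (TGFβ + RA), the retinoic acid alone (RA), the growth factor alone (TGFβ) or neither (IL-2 + IL-15). All 4 groups, the last included, received the interleukins IL-2 and IL-15. How the cells were purified and activated and which doses were used is not given in the sources used here. All libraries are called biological replicates, without a statement that they came from separate mice, so every p-value speaks only of the spread among these 12 libraries. They held 18300206 to 33477037 counts each, and replicates of a group differed by more than counting noise (chi-square per degree of freedom 3.79 to 24), with RA replicate 3 farthest from its group. TGFβ + RA replicate 3 stood apart in genes of myeloid cells, where S100a8 reached 97 counts, S100a9 reached 177 and Lyz2 reached 323.

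Ccr9 is a chemokine receptor for Ccl25, a chemokine made by epithelial cells of the small intestine and the thymus. Gpr15 is a G protein-coupled receptor that draws T cells to the colon in mice. A secreted protein of colon and skin epithelium, encoded in mice by 2610528A11Rik, has been described as its ligand. In earlier work on T cells, retinoic acid made by gut dendritic cells is known to bring out Ccr9 together with the integrin α4β7, and TGFβ and the aryl hydrocarbon receptor are known to bring out Gpr15.

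The genes differ in structure as well as in place. In GENCODE on GRCm38, Ccr9 (ENSMUSG00000029530) lies on the plus strand of chromosome 9, from 123678439 to 123784330, with 6 transcripts, and its longest coding sequence has 369 codons. Gpr15 (ENSMUSG00000047293) lies on the minus strand of chromosome 16, from 58717433 to 58719070, as 1 transcript of a single exon of 1638 bases with 360 codons. The stretches at their RefSeq starts are shown because the levels of these genes moved in opposite directions with RA, and the letters of 5 kinds of factor were looked for in them: nuclear receptors, the aryl hydrocarbon receptor, RUNX, SMAD and NFAT factors. In the GRCm38.p6 sequences of RefSeq, 250 bases before the Ccr9 start (chr9:123766961-123767210, plus strand) and a stretch of 30 bases upstream of the Gpr15 start (chr16:58718937-58718966, minus strand) read, 5′ to 3′, as follows, with letters of a searched motif in capitals.
Ccr9: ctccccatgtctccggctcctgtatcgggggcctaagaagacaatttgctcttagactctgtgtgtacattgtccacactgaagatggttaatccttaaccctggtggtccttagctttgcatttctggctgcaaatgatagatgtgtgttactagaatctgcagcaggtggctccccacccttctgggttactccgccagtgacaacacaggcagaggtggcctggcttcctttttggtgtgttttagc
Gpr15: agaaagaaaACCACAACCACAgccaatacc

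The Ccr9 stretch holds none of the 5 motifs searched on both strands. The Gpr15 stretch was cut around 2 matches of TGTGGT, the letters of RUNX factors, so it holds them by choice. They are read on the opposite strand, side by side without overlap. In the full windows of 250 bases before to 50 bases after the RefSeq start, AGGTCA, core letters of nuclear receptors such as the retinoic acid receptors, had 0 matches in Ccr9 and 0 in Gpr15, against a share of 16.3% of all 32851 mouse promoters of that length with at least 1. GCGTG, the core letters bound by the aryl hydrocarbon receptor, also had 0 matches in each, against 32.4% of promoters. TGTGGT had 0 matches in Ccr9 and 2 in Gpr15, and 16.8% of promoters hold it. CAGAC, the letters of SMAD proteins, occurred once in each gene and in 49.6% of promoters, and GGAAA, the letters of NFAT factors, occurred 0 times in Ccr9 and once in Gpr15 and in 61.3% of promoters. The first of the RUNX-type matches begins 85 bases before the RefSeq start of Gpr15, and GENCODE places the start of that gene 198 bases upstream of that of RefSeq, so these letters lie inside the transcript as GENCODE draws it. For Ccr9, the RefSeq start at 123767211 lies far inside the span that GENCODE begins at 123678439. The outermost GENCODE start of Ccr9 was not searched. A match says that the letters are present and not that a factor binds there.

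Ccr9 was abundant in both groups with RA and scarce in both without it. Levels are given as CPM, counts scaled to 1 common library size by the total and the TMM factor of each library. Ccr9 stood at 1176.7, 1053.7 and 1105.2 CPM in the TGFβ + RA libraries, a mean of 1111.9 ± 61.7 (SD, n = 3). In the RA libraries it stood at 742.7, 824.6 and 1075.1 CPM, a mean of 880.8 ± 173.2. In the TGFβ libraries it stood at 13.9, 18 and 16.5 CPM (16.1 ± 2.07), and in the IL-2 + IL-15 libraries at 3.04, 3.95 and 5 CPM (4 ± 0.982). All 6 libraries with RA lay far above all 6 without it, the TGFβ libraries all lay above the IL-2 + IL-15 libraries, and RA replicate 3 lay above 1 of the TGFβ + RA libraries, so those neighbouring groups overlapped. These values rested on 16323 to 33586 Ccr9 counts per library with RA, 363 to 438 with TGFβ alone and 81 to 163 with neither. In such bulk samples, a smaller share of cells that express a gene and less RNA per cell cannot be told apart.

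Gpr15 had another order, with 1 group high and the other 3 at 1.78 CPM or less in every library. It stood at 0.741, 0.816 and 0.662 CPM in the TGFβ + RA libraries (0.74 ± 0.0768) and at 0.364, 0.338 and 0.333 CPM in the RA libraries (0.345 ± 0.0166). In the TGFβ libraries it stood at 154.2, 110.7 and 100.8 CPM (121.9 ± 28.4), and in the IL-2 + IL-15 libraries at 1.35, 1.59 and 1.78 CPM (1.57 ± 0.215). None of the 4 groups overlapped with another: TGFβ was highest, then IL-2 + IL-15, then TGFβ + RA, and RA was lowest. The TGFβ values rested on 2517 to 4027 Gpr15 counts per library, against 14 to 26 in TGFβ + RA, 7 to 9 in RA and 36 to 58 in IL-2 + IL-15.

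**Figure D1:**
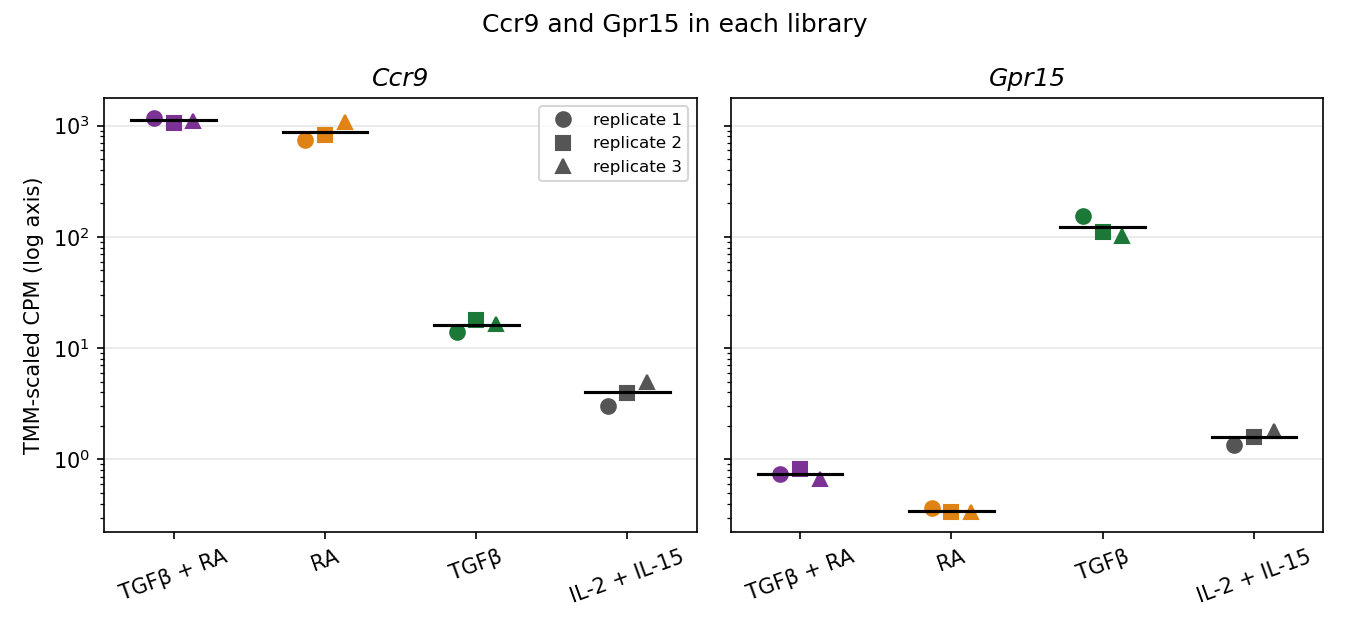
TMM-scaled CPM of Ccr9 (left) and Gpr15 (right) on a log axis, 1 point per library with its replicate number as the symbol and the group mean as a bar, for TGFβ + RA, RA, TGFβ and IL-2 + IL-15. Ccr9 means are 1111.9, 880.8, 16.1 and 4 CPM in that order of groups, while Gpr15 reaches 121.9 CPM in TGFβ and 0.345 to 1.57 CPM in the other groups.

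Per transcript length, both receptors reached the upper part of the range of expressed genes, each in its own cultures. Divided by the exon length of each gene and rescaled to the same sum in each library (TPM), Ccr9 averaged 375.7 ± 25.5 TPM in TGFβ + RA, 263.8 ± 61.8 in RA, 5.42 ± 0.698 in TGFβ and 1.21 ± 0.295 in IL-2 + IL-15 (SD, n = 3 each). Gpr15 averaged 1.56 ± 0.163 TPM in TGFβ + RA, 0.644 ± 0.0207 in RA, 256.7 ± 60.8 in TGFβ and 2.97 ± 0.409 in IL-2 + IL-15. Among 13942 tested genes with an annotated length, Ccr9 ranked 365 from the top in TGFβ + RA and 10240 in TGFβ, and Gpr15 ranked 11842 in TGFβ + RA and 569 in TGFβ. With the length of the longest transcript in place of all exon bases, the TPM of Ccr9 was higher and that of Gpr15 lower, at 565.3 TPM for Ccr9 in TGFβ + RA and 194.8 TPM for Gpr15 in TGFβ. At either length the commoner receptor was Ccr9 in both groups with RA and Gpr15 in both groups without RA.

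RA on its own had opposite effects on the receptors. In RA cultures over IL-2 + IL-15, Ccr9 rose by a log2 fold change of 7.76 ± 0.19 (SE, 95% interval 7.33 to 8.2), with an adjusted p of 5.57e-12 from the quasi-likelihood test of edgeR with Benjamini-Hochberg adjustment over all 14009 genes. Gpr15 fell, with a log2 fold change of -2.18 ± 0.38 (-3.06 to -1.3, adjusted p = 0.000815). Thus 1 member rose and 1 fell in a comparison in which 12.4% of all genes tested rose and 14.3% fell. The Ccr9 change was the 6th highest of all genes, and without RA replicate 3, the RA library with the most Ccr9, it was 7.61.

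TGFβ on its own raised both receptors, Gpr15 by far more. In TGFβ over IL-2 + IL-15, Gpr15 had a log2 fold change of 6.26 ± 0.17 (5.86 to 6.66, adjusted p = 2.17e-11), the 28th highest of all genes. Ccr9 had one of 1.99 ± 0.19 (1.56 to 2.42, adjusted p = 1.94e-06). Both of 2 members rose, where 20.7% of all genes tested rose and 22.4% fell.

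With both agents the cultures had the Ccr9 of RA cultures and little Gpr15. In TGFβ + RA over IL-2 + IL-15, Ccr9 had a log2 fold change of 8.1 ± 0.19 (7.67 to 8.54, adjusted p = 2.5e-12) and Gpr15 one of -1.09 ± 0.31 (-1.8 to -0.37, adjusted p = 0.00771). The fall of Gpr15 was called without each library in turn as well, TGFβ + RA replicate 3 included (-1, adjusted p = 0.0317). In this comparison 30.8% of all genes tested rose and 32.4% fell, so a call by itself was common. The 3 comparisons above share the IL-2 + IL-15 libraries and are not independent of each other.

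In cultures with TGFβ, RA again went with more Ccr9 and less Gpr15. In TGFβ + RA over TGFβ, Ccr9 had a log2 fold change of 6.11 ± 0.17 (5.73 to 6.49, adjusted p = 1.34e-11), the 2nd highest of all genes, and Gpr15 one of -7.35 ± 0.2 (-7.8 to -6.9, adjusted p = 1.14e-11), the 14th lowest. On the linear scale Gpr15 was 162.9-fold lower in TGFβ + RA than in TGFβ, and Ccr9 was 69-fold higher. Again 1 member rose and 1 fell, against 20.3% and 22.7% of all genes tested.

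With TGFβ added to RA the differences were smaller, and their calls turned on single libraries. In TGFβ + RA over RA, Ccr9 had a log2 fold change of 0.34 ± 0.13 (0.04 to 0.63, adjusted p = 0.0363) with overlapping groups, and Gpr15 one of 1.1 ± 0.45 (0.05 to 2.15, adjusted p = 0.0512), which was not called although the groups did not overlap. That is 1 of 2 members called higher, where 29.4% of all genes tested were higher and 30.8% lower. Ccr9 was no longer called once TGFβ + RA replicate 1 (0.3, adjusted p = 0.105), TGFβ + RA replicate 3 (0.34, adjusted p = 0.0713), RA replicate 1 (0.21, adjusted p = 0.176), RA replicate 2 (0.28, adjusted p = 0.136) or IL-2 + IL-15 replicate 2 (0.32, adjusted p = 0.0608) was left out. Without RA replicate 3 the change was 0.49 (adjusted p = 0.000606). Gpr15, at 7 to 26 counts per library in these groups, was called higher without TGFβ replicate 1, 2 or 3 (adjusted p = 0.00254, 0.0377 and 0.0183), each of which leaves its log2 fold change at 1.1. The adjusted p ranged from 0.000606 to 0.176 for Ccr9 and from 0.00254 to 0.142 for Gpr15 over the alternatives, so both calls depended on the setting for this pair of groups.

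Set against each other, the single additions were far apart for both genes. In RA over TGFβ, Ccr9 had a log2 fold change of 5.77 ± 0.16 (5.4 to 6.15, adjusted p = 1.14e-11) and Gpr15 one of -8.45 ± 0.22 (-8.96 to -7.94, adjusted p = 4.92e-12), the 9th lowest of all genes. Here too 1 member rose and 1 fell, against 25.9% and 26.7% of all genes tested. For Ccr9, every step down the order TGFβ + RA, RA, TGFβ, IL-2 + IL-15 was called, the top step with the overlap and lost calls given above. For Gpr15, the steps from TGFβ to IL-2 + IL-15 and from IL-2 + IL-15 to TGFβ + RA were called and the lowest step, TGFβ + RA over RA, was not.

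The effects of RA with and without TGFβ differed for both receptors by the test of the interaction. For Ccr9 the RA effect was 6.11 with TGFβ and 7.76 without it, a difference of -1.66 ± 0.23 on the log2 scale (-2.18 to -1.13, adjusted p = 0.000229). For Gpr15 it was -7.35 with TGFβ and -2.18 without it, a difference of -5.16 ± 0.65 (-6.67 to -3.66, adjusted p = 0.000117). The same numbers say that the TGFβ effect on Gpr15 was 1.1 with RA and 6.26 without it, and that on Ccr9 0.34 with RA and 1.99 without it. Without TGFβ, Gpr15 had only 36 to 58 counts per library in IL-2 + IL-15 and 7 to 9 in RA. The interval of that RA effect (-3.06 to -1.3) did not reach -7.35. These low counts limit how precisely the size of the Gpr15 interaction is known. Both of 2 members had a negative interaction, as did 12.3% of all genes tested, while 6.95% had a positive one. In all 2702 genes had a called interaction, and 4158 without RA replicate 3, when the differences for the members were -1.5 for Ccr9 and -5.2 for Gpr15, both called.

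**Figure D2:**
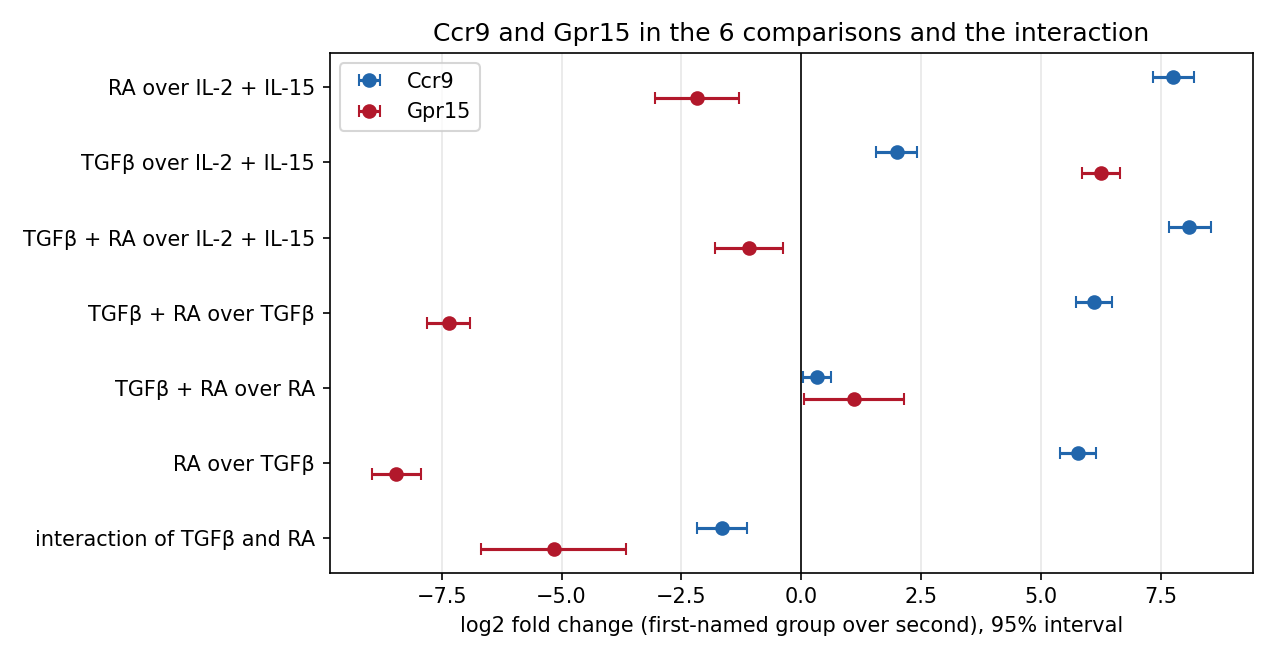
Log2 fold changes of Ccr9 and Gpr15 with their 95% intervals in the 6 comparisons of groups, first-named group over second, and in the interaction, which is the RA effect with TGFβ less that without it. Ccr9 lies between 5.77 and 8.1 in the comparisons that add RA or set RA over TGFβ, while Gpr15 is at 6.26 in TGFβ over IL-2 + IL-15 and at -7.35 and -8.45 against TGFβ.

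The balance of the receptors within a library does not depend on how libraries are scaled. The log2 ratio of Ccr9 to Gpr15 counts, with 1 count added to each, was 10.53, 10.28 and 10.63 in the TGFβ + RA libraries and 10.82, 11.1 and 11.46 in the RA libraries. It was -3.47, -2.62 and -2.61 in the TGFβ libraries and 1.15, 1.29 and 1.47 in the IL-2 + IL-15 libraries. TGFβ was the only one of the 4 groups with more Gpr15 than Ccr9 counts, and no group overlapped with another on this measure. The difference in mean ratio was 13.38 for TGFβ + RA over TGFβ, 14.03 for RA over TGFβ, 9.18 for TGFβ + RA over IL-2 + IL-15, 9.82 for RA over IL-2 + IL-15, -4.2 for TGFβ over IL-2 + IL-15 and -0.65 for TGFβ + RA over RA. Each of these 6 differences had p = 0.1 in an exact two-sided permutation test, the smallest p that 3 against 3 libraries allow, and 0.1 after Benjamini-Hochberg adjustment as well. This is a ratio of counts, and Ccr9 has the longer transcripts.

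The genes around each receptor were read from the same fit, over 200 kb on either side. Lztfl1, which encodes a protein of ciliary trafficking, lies on the opposite strand inside the GENCODE span of Ccr9, with 0 exon bases in common. Its place is upstream of the RefSeq start of Ccr9. Lztfl1 had 183.4 CPM in TGFβ + RA, 525.1 in RA, 19.9 in TGFβ and 15.7 in IL-2 + IL-15 on average. It rose in RA over IL-2 + IL-15 by a log2 fold change of 5.07 ± 0.13 (adjusted p = 8.24e-12) and in TGFβ + RA over TGFβ by 3.2 ± 0.12 (adjusted p = 2.74e-10). Unlike Ccr9, it was lower in TGFβ + RA than in RA (-1.52 ± 0.11, adjusted p = 5.51e-08). Cxcr6, the receptor for Cxcl16 that marks resident T cells and lies 22.1 kb from Ccr9, rose in RA over IL-2 + IL-15 by 1.16 ± 0.11 (adjusted p = 7.96e-06). Of the 8 tested neighbours of Ccr9, 5 rose in that comparison and the other 3 were not called, with a median log2 fold change of 0.58, and 1 of those 3 fell without RA replicate 3. Over all genes tested, 12.4% rose and 14.3% fell there. In TGFβ + RA over RA, 7 of these 8 neighbours were lower and 1 was higher (median log2 fold change -0.8). Of all genes tested, 30.8% were lower and 29.4% higher in that comparison. Gm17200, a long noncoding RNA, shares 269 exon bases with Ccr9 on the same strand, upstream of the RefSeq start of Ccr9. Gm17200 was present at a low level, with 0.366 CPM in TGFβ + RA, 0.838 in RA, 0.0265 in TGFβ and 0.0238 in IL-2 + IL-15. Like Lztfl1 and unlike Ccr9 it was lower in TGFβ + RA than in RA (-1.18 ± 0.32, adjusted p = 0.00562), a call lost by DESeq2's Wald test (adjusted p = 0.0511, with a range of 0.00419 to 0.0511 over all alternatives). Ccr1, another chemokine receptor 177.8 kb away, had 0.428 CPM in TGFβ + RA, 15.7 in RA, 2.52 in TGFβ and 8.28 in IL-2 + IL-15, so it was lowest in the group in which Ccr9 was highest.

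Next to Gpr15, Cldnd1, which encodes a claudin-domain membrane protein and lies 8.84 kb away, had 18.7 CPM in TGFβ + RA, 18.9 in RA, 126.1 in TGFβ and 24.1 in IL-2 + IL-15. It rose in TGFβ over IL-2 + IL-15 by a log2 fold change of 2.39 ± 0.07 (adjusted p = 3.53e-11) and fell in TGFβ + RA over TGFβ (-2.75 ± 0.07, adjusted p = 9.02e-12). Cpox, an enzyme of heme synthesis whose end overlaps that of Gpr15 on the other strand, had 20.3 CPM in TGFβ + RA, 21.5 in RA, 40.6 in TGFβ and 21.1 in IL-2 + IL-15, and its change in TGFβ over IL-2 + IL-15 was 0.94 ± 0.07 (adjusted p = 3.68e-07). Of the 3 tested neighbours of Gpr15, 2 rose with TGFβ alone and the other, St3gal6, was not called, and all 3 had a called negative interaction, -2.41 ± 0.1 for Cldnd1 (adjusted p = 2.12e-08) among them. Unlike Gpr15, St3gal6 rose in RA over IL-2 + IL-15 (0.96 ± 0.11, adjusted p = 2.35e-05). In TGFβ + RA over TGFβ, St3gal6 was not called (0.17 ± 0.11, adjusted p = 0.233). Over all genes tested, 20.7% rose with TGFβ alone and 12.3% had a negative interaction. The other 12 genes within 200 kb, 6 of them olfactory receptor genes, were not tested.

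Some bases are shared with these neighbours. Of the 1638 exon bases of Gpr15, 204 (12.5%) are also annotated to Cpox on the opposite strand, and the part of Gpr15 reads in the Cpox change was not tested. Of the 10260 exon bases of Ccr9, 19.0% are annotated on the opposite strand, 1932 of them in AC165425.1, and 2.62% are also annotated to Gm17200. The part of Ccr9 reads in the level of Gm17200 was not tested. AC165425.1 had 0.0966 CPM in TGFβ + RA and 0.169 CPM in RA, groups in which Ccr9 reached at least 742.7 CPM in every library. Library preparation kept strand per the labels, but the strand setting of the counting is not given in the sources used here. Whether Ccr9 or Gpr15 lost reads over the shared bases in counting was not tested.

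**Figure D3:**
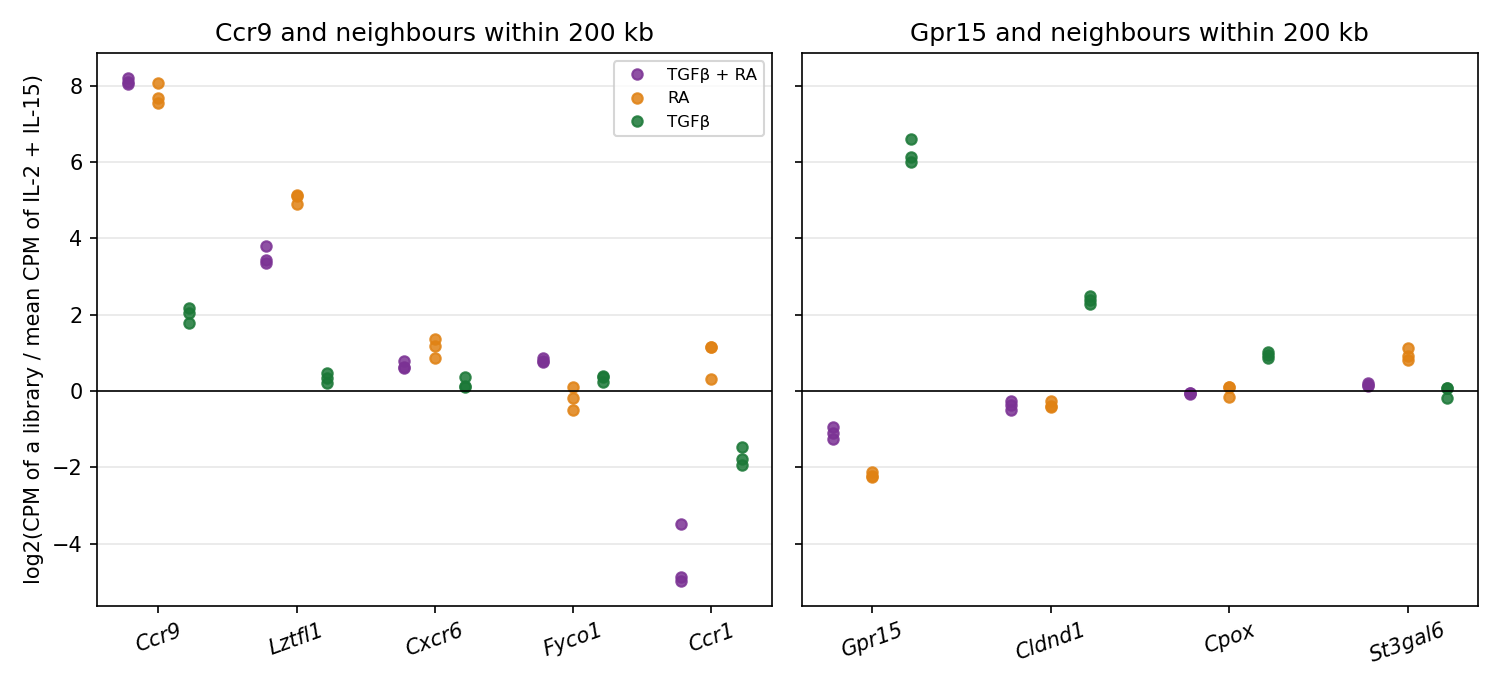
Log2 ratio of each library's CPM to the mean CPM of the IL-2 + IL-15 libraries for Ccr9 and 4 of its neighbours (left) and for Gpr15 and its 3 tested neighbours (right), 1 point per library of TGFβ + RA, RA and TGFβ. Lztfl1 is raised with Ccr9 in both groups with RA (525.1 CPM in RA against 15.7 CPM in IL-2 + IL-15), and Cldnd1 is raised with Gpr15 in TGFβ (126.1 CPM against 24.1 CPM in IL-2 + IL-15).

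Other genes were ranked by how closely their 4 group means of log2 CPM, each centred on the gene's own mean, followed those of a receptor, as the root mean square difference. Closest to Ccr9 were Sorcs2, a sorting receptor (0.79), the pseudogene Art2a-ps (0.81), P2rx7, an ATP-gated channel (1.02), Dhrs3, which reduces retinal (1.26), and Hic1, a transcription factor known in mice as a target of RA in gut T cells (1.4), against a median of 3.55 over 11997 genes. P2rx7 averaged 299.4 CPM in TGFβ + RA, 611.1 in RA, 1.76 in TGFβ and 2.0 in IL-2 + IL-15. Hic1, with 135.2, 103.9, 12.2 and 3.54 CPM in the same order of groups, shared with Ccr9 a higher mean in TGFβ + RA than in RA and in TGFβ than in IL-2 + IL-15.

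Closest to Gpr15 were the cytokine gene Il10 (0.67), the peptide transporter Slc15a1 (0.83), the imprinted genes Meg3 (0.85) and Dlk1 (1.05), and Rasgrp3, an activator of Ras-family proteins (1.06), against a median of 3.19. Il10, the anti-inflammatory cytokine, averaged 0.571 CPM in TGFβ + RA, 0.104 in RA, 24.8 in TGFβ and 0.512 in IL-2 + IL-15. All 5 were high in TGFβ alone, from 7.48 CPM for Rasgrp3 to 24.8 for Il10, and at most 1.42 CPM on average in any other group. Rasgrp3 had no count in any IL-2 + IL-15 library, so no fold is given for it. Likeness over 4 group means is a description of these cultures.

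**Figure D4:**
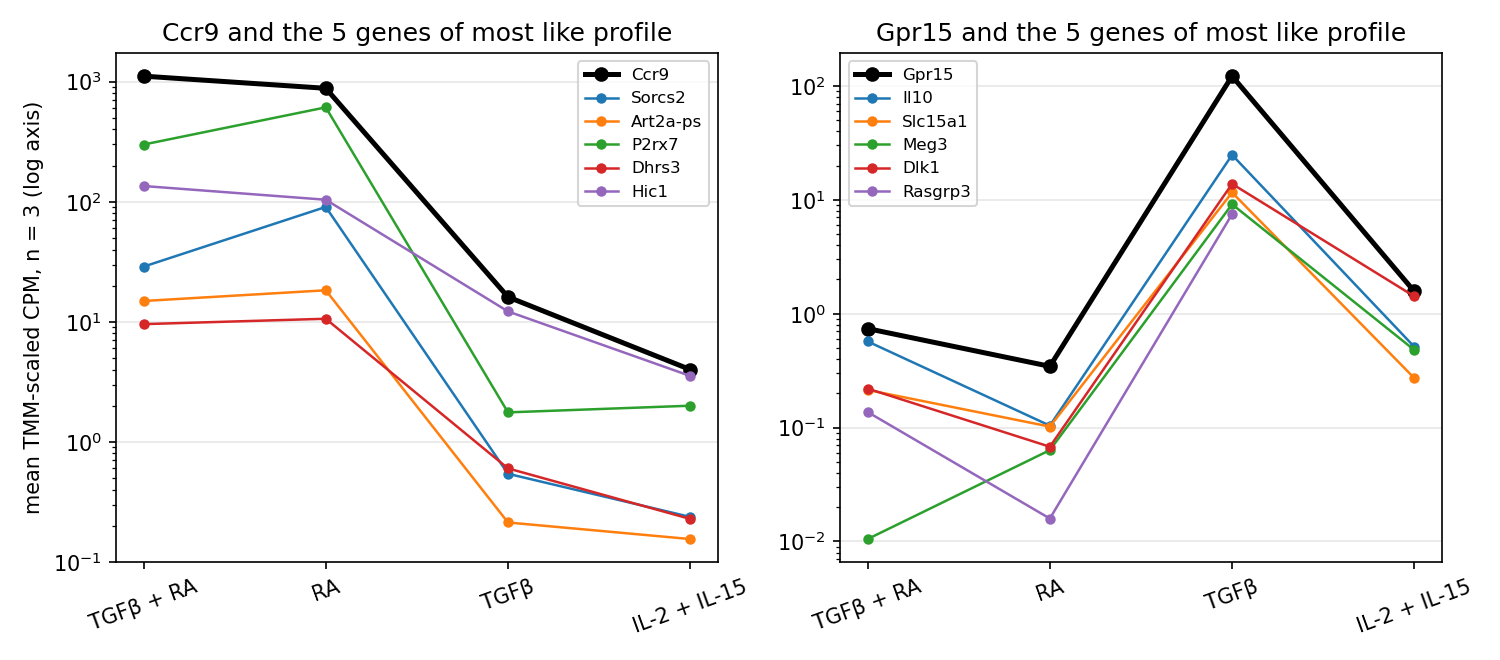
Mean TMM-scaled CPM (log axis, n = 3 libraries per group) of Ccr9 and the 5 genes of most like profile (left) and of Gpr15 and its 5 (right) in TGFβ + RA, RA, TGFβ and IL-2 + IL-15; the mean of 0 CPM of Rasgrp3 in IL-2 + IL-15 cannot be drawn on a log axis. The Ccr9 set is high in both groups with RA, and the Gpr15 set is high in TGFβ alone, with means of 7.48 to 24.8 CPM for the 5 genes beside 121.9 CPM for Gpr15.

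Among the partners and ligands of gut homing, the integrin chains followed different agents. Itga4, the α4 chain that pairs with β7 to bind MAdCAM1 on gut vessels, averaged 287.1 CPM in TGFβ + RA, 939.7 in RA, 114.9 in TGFβ and 156.7 in IL-2 + IL-15. It rose in RA over IL-2 + IL-15 by 2.58 ± 0.14 on the log2 scale (adjusted p = 2.27e-08). Like Ccr9 it was higher in TGFβ + RA than in TGFβ (1.32 ± 0.13, adjusted p = 2.85e-06), but it was lower in TGFβ + RA than in RA (-1.71 ± 0.13, adjusted p = 1.45e-07). Itgb7, the β7 chain, lay between 975.4 and 1452.0 CPM in the group means, with a change of 0.57 ± 0.06 in TGFβ over IL-2 + IL-15 (adjusted p = 2.44e-06) and 0.29 ± 0.06 in RA over IL-2 + IL-15 (adjusted p = 0.00161). Itgae, the αE chain that retains T cells at epithelium, averaged 3158.4 CPM in TGFβ + RA, 187.9 in RA, 2028.0 in TGFβ and 99.5 in IL-2 + IL-15. Cdh1, the E-cadherin that αEβ7 binds, averaged 287.4, 24.1, 302.6 and 5.43 CPM in that order of groups. Itgae was thus high in both groups with TGFβ, where Gpr15 was high in 1 of them and Ccr9 in the other.

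Of the 14 genes on this list, 10 were tested. Counts of calls on this list and the lists after it are set beside the shares of all genes tested that were called. In RA over IL-2 + IL-15 6 rose and 2 fell (median log2 fold change 0.31, against -0.001 over all genes tested, of which 12.4% rose and 14.3% fell), and the fall of Itgb1 (-0.27, adjusted p = 0.0398) was called without IL-2 + IL-15 replicate 2 or TGFβ replicate 1 and was lost when any other single library was left out (adjusted p up to 0.204). In TGFβ over IL-2 + IL-15 4 rose and 2 fell (median 0.39, all genes 0.001, with 20.7% up and 22.4% down), and with IL-2 + IL-15 replicate 3 left out the fall of Itga4 (-0.45, adjusted p = 0.0142) did not pass (-0.36, adjusted p = 0.0659). In TGFβ + RA over IL-2 + IL-15 7 rose and 1 fell (median 0.52, all genes 0.002, with 30.8% up and 32.4% down), and in TGFβ + RA over TGFβ 4 rose and 3 fell (median 0.06, all genes 0.011, with 20.3% up and 22.7% down). In RA over TGFβ 3 rose and 7 fell, with a median of -0.44 against -0.016 over all genes, of which 25.9% rose and 26.7% fell. The G protein-coupled receptors Gpr18 and Gpr55 are known in mice to act on lymphocytes of the gut epithelium. Gpr18 was higher in TGFβ + RA than in RA by 1.05 ± 0.07 (adjusted p = 3.38e-08), and Gpr55 higher in TGFβ than in IL-2 + IL-15 by 0.94 ± 0.09 (adjusted p = 1.79e-06). Of the ligands, Ccl25 averaged 4.96 CPM in TGFβ + RA, 3.38 in RA, 4.34 in TGFβ and 4.4 in IL-2 + IL-15, while 2610528A11Rik had 1 to 6 counts per library and was not tested.

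Other chemokine receptors split between these patterns and others. Of 22 listed, 12 were tested, of which 4 rose and 5 fell in RA over IL-2 + IL-15 (median log2 fold change -0.1) and 3 rose and 6 fell in TGFβ over IL-2 + IL-15 (median -0.55). In TGFβ + RA over TGFβ 4 rose and 7 fell (median -1.17), and in TGFβ + RA over RA 4 rose and 7 fell (median -0.98), beside medians of all genes between -0.003 and 0.011 in these comparisons. The shares of all genes that rose and fell were 12.4% and 14.3% in RA over IL-2 + IL-15, 20.7% and 22.4% in TGFβ over IL-2 + IL-15, 20.3% and 22.7% in TGFβ + RA over TGFβ, and 29.4% and 30.8% in TGFβ + RA over RA. Ccr8, a receptor of skin T cells, averaged 1.46 CPM in TGFβ + RA, 0.284 in RA, 9.49 in TGFβ and 1.26 in IL-2 + IL-15, and Cx3cr1, the fractalkine receptor, 1.89, 0.0746, 15.5 and 0.594 CPM in the same order. Both rose with TGFβ alone (2.89 ± 0.22 and 4.69 ± 0.26, adjusted p = 2.59e-07 and 1.56e-08) and fell when RA was added to TGFβ (-2.7 ± 0.21 and -3.01 ± 0.22, adjusted p = 2.68e-07 and 1.33e-07), as Gpr15 did. Ccr2, which guides cells to inflamed tissue, was low in both groups with TGFβ, with 2.72 CPM in TGFβ + RA, 288.6 in RA, 9.7 in TGFβ and 279.4 in IL-2 + IL-15. Ccr7 and Cxcr4, which guide lymphocytes to lymph nodes and bone marrow, fell in RA over IL-2 + IL-15 by 1.37 ± 0.14 and 1.91 ± 0.1 on the log2 scale (adjusted p = 1.11e-05 and 2.27e-08).

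Most tested genes of the retinoid pathway were called with RA and also with TGFβ alone. Of 21 listed, 11 were tested, and 6 rose and 3 fell in RA over IL-2 + IL-15 (median log2 fold change 1.71, all genes -0.001, with 12.4% up and 14.3% down). In TGFβ over IL-2 + IL-15 7 rose and 2 fell (median 0.6, all genes 0.001, with 20.7% up and 22.4% down). The number that rose there ranged from 4 to 7 with a library left out. In TGFβ + RA over TGFβ 7 rose and 3 fell (median 0.31, all genes 0.011, with 20.3% up and 22.7% down). Dhrs3 rose in RA over IL-2 + IL-15 by 5.45 ± 0.28 (adjusted p = 1.62e-08), Hic1 by 4.87 ± 0.19 (adjusted p = 7.34e-10), Tgm2, transglutaminase 2, by 3.93 ± 0.34 (adjusted p = 2.55e-06) and Cyp26b1, which degrades RA, by 6.55 ± 0.53 (adjusted p = 1.34e-06). The receptor genes Rxra, Rara and Rarg fell in the same comparison (-3.1 ± 0.24, -1.05 ± 0.07 and -1.66 ± 0.06, adjusted p = 9.8e-07, 4.08e-07 and 8.05e-10). Cyp26b1 had 1.01 CPM in TGFβ + RA, 9.51 in RA, 0.161 in TGFβ and 0.102 in IL-2 + IL-15, whereas Ccr9 was no lower in TGFβ + RA than in RA.

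Factors reported in earlier work to control Ccr9 or Gpr15 were listed together with readout genes of the aryl hydrocarbon receptor, such as Ahrr and Tiparp. This list gave 20 tested genes of 22, with 7 higher and 9 lower in TGFβ over IL-2 + IL-15 (median log2 fold change -0.01, all genes 0.001, with 20.7% up and 22.4% down). In TGFβ + RA over TGFβ, 8 were higher and 6 lower (median -0.12, all genes 0.011, with 20.3% up and 22.7% down). Ahr, the aryl hydrocarbon receptor, averaged 13.8 CPM in TGFβ + RA, 2.46 in RA, 20.7 in TGFβ and 0.985 in IL-2 + IL-15, and its repressor and target Ahrr 15.1, 0.738, 30.9 and 0.581 CPM in the same order. In TGFβ over IL-2 + IL-15 they rose by 4.39 ± 0.18 and 5.71 ± 0.27 (adjusted p = 1.43e-09 and 3.48e-09). In TGFβ + RA over TGFβ they fell by 0.57 ± 0.14 and 1.02 ± 0.18 on the log2 scale (adjusted p = 0.00414 and 0.000445), where Gpr15 fell by 7.35. Foxp3, the regulatory T cell factor, averaged 214.0 CPM in TGFβ + RA, 0.468 in RA, 54.3 in TGFβ and 0.914 in IL-2 + IL-15, so of the groups with TGFβ it was higher in the one with less Gpr15. Irf4, a factor of activated T cells, averaged 58.6 CPM in TGFβ + RA, 150.7 in RA, 234.9 in TGFβ and 194.4 in IL-2 + IL-15, and fell in TGFβ + RA over TGFβ (-2.0 ± 0.04, adjusted p = 1.45e-12). Smad3, a transducer of TGFβ signals, fell in TGFβ over IL-2 + IL-15 (-1.76 ± 0.06, adjusted p = 9.2e-11), and Runx3, a CD8 lineage factor, rose (0.63 ± 0.07, adjusted p = 6.51e-06). Runx3 was also higher in TGFβ + RA than in IL-2 + IL-15 (log2 fold change 0.43), where Gpr15 was lower. Runx1 averaged 12.7 CPM in TGFβ and 32.5 in IL-2 + IL-15.

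All 7 CD8 T cell markers were detected in every group, with summed levels of 8361.2 to 8689.1 CPM in TGFβ + RA, 5118.4 to 5293.5 in RA, 8064.4 to 8450.2 in TGFβ and 5045.6 to 5716.9 in IL-2 + IL-15. Ccr9 and Gpr15 are also known in other cells, so their markers were summed. The 6 of plasmacytoid dendritic cells, which carry Ccr9, summed to 8.89 to 9.63 CPM in TGFβ + RA, 5.42 to 7.95 in RA, 10.6 to 12.4 in TGFβ and 9.4 to 9.92 in IL-2 + IL-15, and their defining Siglech was at 0 in all 12 libraries. The 8 of B and plasma cells, some of which carry Gpr15 or Ccr9, summed to 23.1 to 27.7, 16.9 to 20.5, 35.0 to 38.8 and 14.4 to 17.4 CPM in the same order, most of it Cd79b, with Ms4a1 and Pax5 at or near 0 and Jchain at 6.43 ± 1.09 CPM in TGFβ against 0.581 ± 0.257 in IL-2 + IL-15. The 5 γδ T cell genes summed to 494.6 to 568.4 CPM in TGFβ + RA, 154.7 to 252.4 in RA, 344.2 to 385.2 in TGFβ and 132.9 to 177.7 in IL-2 + IL-15. Most of this was Tcrg-C2, at 471.2, 141.8, 313.5 and 97.6 CPM on average in the same order, which rose in TGFβ + RA over IL-2 + IL-15 (2.27 ± 0.18, adjusted p = 1.05e-07), as did Tcrg-C1 (1.07 ± 0.18, adjusted p = 0.000133). Trdc, the constant part of the δ chain, averaged 16.7, 44.8, 25.2 and 41.1 CPM and fell in that comparison (-1.27 ± 0.24, adjusted p = 0.000423), and Sox13 and Trdv4 averaged at most 0.179 CPM in every group. The 4 of NK cells summed to 86.3 to 94.2 CPM in TGFβ + RA, 127.5 to 275.0 in RA, 78.6 to 97.9 in TGFβ and 160.9 to 286.0 in IL-2 + IL-15, mostly Eomes and Klre1, which CD8 T cells can express too. Of these, Ncr1 averaged at most 0.313 CPM, and Klrb1c averaged 0.951, 35.2, 0.955 and 11.2 CPM and rose in RA over IL-2 + IL-15 (1.67 ± 0.38, adjusted p = 0.00503). The 5 of CD4 and regulatory T cells summed to 299.8 to 418.5, 146.1 to 186.7, 243.5 to 276.7 and 118.4 to 136.6 CPM in that order, with Cd4 itself at 0.395 to 2.51 CPM on average. The 8 myeloid genes summed to 65.0 to 76.0 CPM in TGFβ + RA, 215.5 to 369.2 in RA, 18.1 to 20.3 in TGFβ and 91.6 to 154.3 in IL-2 + IL-15, most of it Itgax, which T cells can express too. Without TGFβ + RA replicate 3, the library with Lyz2, S100a9 and S100a8, Ccr9 and Gpr15 had log2 fold changes of 6.11 and -7.27 in TGFβ + RA over TGFβ. The part of other cells in the levels of Ccr9 and Gpr15 was not tested beyond these values.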

How the data were processed

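RNA was isolated with a column kit from cultured CD8 T cells, and stranded mRNA libraries were made, per the labels. Reads were aligned with STAR and assigned with featureCounts on GRCm38, per the submitters' processing notes. The authors deposited whole-number counts per gene for each library, not normalized, in which 0 entries name no gene. Versions, annotation release and strand setting are not given in the sources used here. Of 46078 identifiers, 45143 (98.0%) were found in GENCODE vM21, used for coordinates, exon lengths and the names of neighbours. Other gene symbols were read with the counts.

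The treatment labels gave the 4 groups of 3 samples, and none was left out. Genes were kept by filterByExpr (minimum count 10) in edgeR 4.0.16 (R 4.3.3), scaled by TMM and fitted in 1 quasi-likelihood model of 4 group means over 12 libraries (8 residual degrees of freedom). Called means an adjusted p under 0.05 (Benjamini-Hochberg). Each SE divides the absolute log2 fold change by the root of its F statistic. Both genes, the gene lists and the tests were chosen with earlier results of these data known. Genes named are both receptors, members of the lists, the 5 most alike and neighbours within 200 kb. Alternatives were DESeq2 size factors and its Wald test (version 1.42.0), no filter, a replicate block, only the groups compared and each library left out.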

Additional observations from a re-analysis of the deposited data

Results flagged for a closer look

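The effect of RA differed with and without TGFβ for both receptors by the interaction test of edgeR (adjusted p = 0.000117 for Gpr15 and 0.000229 for Ccr9). For Gpr15 the difference was -5.16 on the log2 scale, from an RA effect of -7.35 with TGFβ and -2.18 without it, and it was negative in each of the 16 alternatives run. Its precision is limited by depth, with 36 to 58 Gpr15 counts per library in IL-2 + IL-15 and 7 to 9 in RA. The interval of the RA effect without TGFβ was -3.06 to -1.3 and did not reach -7.35. For Ccr9 the difference was -1.66, from an RA effect of 6.11 with TGFβ and 7.76 without it, and it was also negative in each of 16 alternatives.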

How the results depend on the processing

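Of the 14 results for Ccr9 and Gpr15, 12 kept direction and side of the threshold in every alternative run, and no result reversed. The exceptions were in TGFβ + RA over RA, where the cause was not tested. Ccr9 (0.34) was not called with the groups compared alone (0.34, adjusted p = 0.0524) or by DESeq2's Wald test (0.34, adjusted p = 0.11), and ranged from 0.21 to 0.49 with a library left out. Gpr15 (1.1) was called without the filter (1.1, adjusted p = 0.017), with the groups compared alone (1.1, adjusted p = 0.00795) and by the Wald test (1.11, adjusted p = 0.00778), and ranged from 1.0 to 1.18 with a library left out. Whether equal replicate numbers share a source is not given, and the main fit did not pair them. Deviations from the group means correlated above 0.1 in 10 of 18 same-numbered pairs. Their median correlation was 0.1045. Other pairs had a median of -0.055, which is no separate evidence because deviations cancel out within a group. Of the 12 libraries, 11 correlated best with one of their own number. A pairing by replicate number is thus possible. The replicate block called Gpr15 in that comparison (1.13, adjusted p = 0.0166) and left the call of each other result for the receptors as it was. Genes with a called interaction ranged from 2040 to 4158 with a library left out, against 2702. Other size factors shifted the median of all genes by 0.006 or less. Gpr15 in RA and TGFβ + RA, at 7 to 26 counts, is limited by depth.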
